A study of Mus musculus with 12 samples.

Results

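Ependymomas driven by the ZFTA-RELA fusion were set against non-tumour mouse cortex, across all genes measured by polyA RNA sequencing. The comparison used 6 of the 12 libraries of the series: 3 from tumours whose genotype is given as ZFTA-RELA, called control tumours here, and 3 from wild-type cortex. The remaining libraries came from tumours that also overexpressed human ETV5 or human NPY, and entered no value below except 1 alternative fit. The table held 24421 genes, of which 14621 had enough reads to be tested. The labels give neither age nor strain, nor how the fusion was introduced, from which promoter or into which cells. They do not say that replicates came from separate animals. A p-value here reflects only library-to-library spread, part of which may be technical. Xist, the RNA of X inactivation, was almost absent from 1 library of each group, so the 3 libraries of a group are unlikely to share 1 animal.

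ZFTA is a zinc finger protein and RELA is the p65 subunit of NF-kB. Their fusion defines a class of forebrain ependymoma, in which the chimaeric protein sits on chromatin and activates NF-kB targets together with other growth genes. Mature cortex consists of neurons with their synapses, myelinating oligodendrocytes, astrocytes, microglia and vessels, and few of its cells divide. In bulk tissue, fewer cells of a type and less RNA per cell cannot be told apart, and this applies to every level below.

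Depth was 5962376 to 7444467 reads in cortex and 6266613 to 9443466 reads in tumours. CPM here means reads scaled by the gene reads of the library. Levels in CPM follow transcript length, so they are compared between groups and not between genes. A gene is called where its adjusted p-value was under 0.05 (limma, Benjamini-Hochberg), and a value with ± is a mean and SD of 3 libraries. Folds come from the fit of log2 values in the deposited scaling, so they can differ from the ratio of the CPM means. Both fusion partners had more reads in tumours, although gene counts cannot separate the endogenous genes from the fusion: Rela (chromosome 19, 5637442 to 5648134) stood at 18.9, 19.1 and 18.5 CPM in cortex and 84.4, 104 and 73.9 CPM in the tumours. Zfta, listed as 2700081O15Rik (chromosome 19, 7417625 to 7425908), stood at 46.6, 39.9 and 37.03 CPM in cortex and 261, 215 and 196 CPM in the tumours, again with no overlap between the groups.

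Libraries were alike within the groups, but 2 of them stood apart from their group in tissue markers. Across genes, which are not independent of each other, cortex libraries correlated with each other at r = 0.981 to 0.984 and tumours at 0.949 to 0.970. Tumour 3 lay nearer to cortex (r = 0.644 to 0.653) than tumours 1 and 2 (0.550 to 0.564). The summed level of 12 pan-neuronal genes was 885, 834 and 1678 CPM in tumours 1 to 3, against 9979 to 10715 CPM in cortex. The summed level of 10 striatal neuron genes was 586, 550.1 and 2672 CPM in cortex, and Drd1, the D1 dopamine receptor of striatal projection neurons, stood at 20.01, 15.9 and 89.5 CPM there, so the library of cortex replicate 3 held the most striatal transcript. Ttr, the transthyretin gene of choroid plexus, was read at 1213, 1346 and 531 CPM in the cortex libraries, which places choroid plexus transcript in all 3. Lymphocyte genes were low, and their summed level was 4.70, 4.86 and 21.6 CPM in cortex and 42.3, 50.6 and 111 CPM in the tumours. Of 14 such genes 11 had too few reads to be tested and 2 of the other 3, Klrb1c and Cd79a, were called higher. The part of lymphocytes in the immune results below was not tested. Of 12 neutrophil and mast cell genes 10 had too few reads to be tested, and Kit, which was not called, held most of their summed level of 42.8 to 79.3 CPM. The haemoglobin genes Hba-a1, Hba-a2, Hbb-bs and Hbb-bt are listed at 0 in all 6 libraries.

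The difference between tumour and cortex covered most of the transcriptome and, in the deposited scaling, was balanced in number. Of 14621 genes, 10521 were called (72%), 5225 higher in tumours (35.7%) and 5296 lower (36.2%), and the median log2 fold change was -0.0032. Such scaling holds the typical gene near no change, so this median and the even counts partly follow from it. At least 2-fold, 3535 genes were higher (24.2%) and 3602 lower (24.6%). At least 4-fold, 2073 were higher (14.2%) and 1945 lower (13.3%). At the far end the balance was lost: 726 genes were called at least 16-fold higher (4.97%) and 268 at least 16-fold lower (1.83%). The genes of the first of these sets took 0.203 to 0.223% of the reads of each cortex library and 7.77 to 11.5% of each tumour. Genes called higher in tumours took 16.8% of cortex reads and 54.8% of tumour reads, and genes called lower took 64.3% and 23.7%. The 2 groups did not overlap in 77.4% of genes. For 1874 genes the 95% interval of the fold lay within 1.5-fold in either direction.

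**Figure D1:**
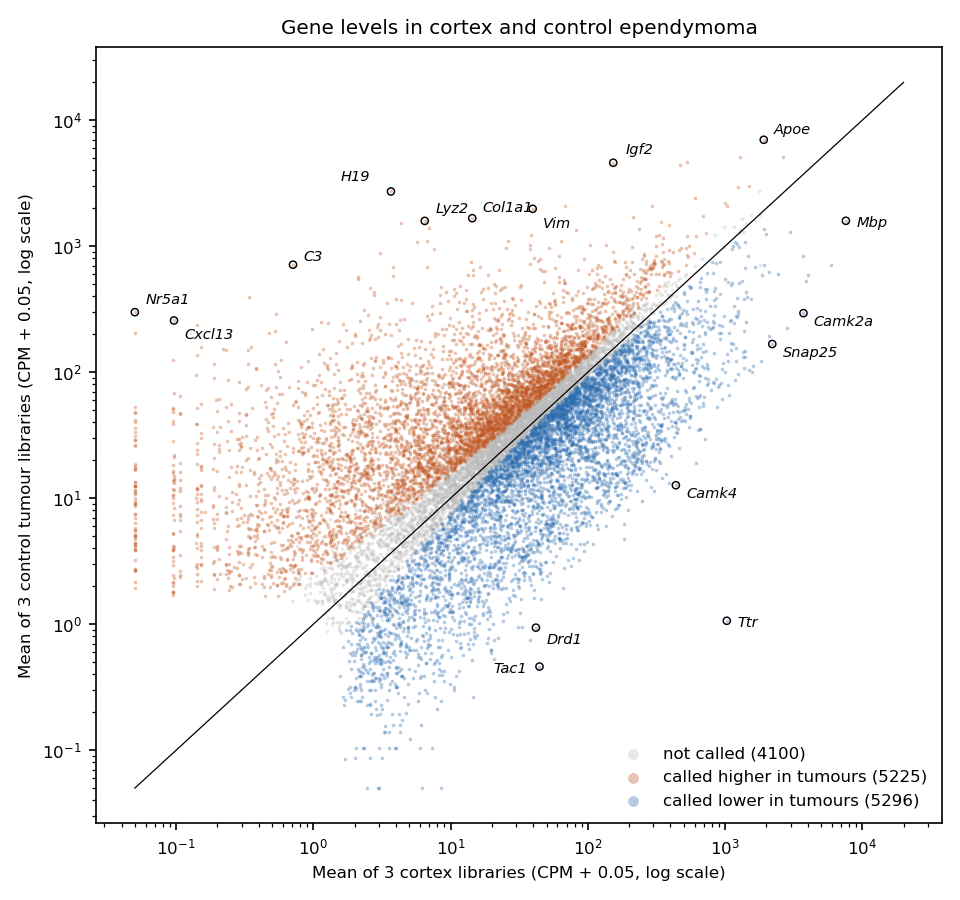
Each point is 1 of 14621 genes, with its mean level in 3 cortex libraries on the x axis and in 3 control tumours on the y axis (CPM plus 0.05, log scales), coloured by its call, and the line marks equal levels. Points called higher reach far above the line at the left, where cortex levels are near 0, while Ttr, Drd1 and Tac1 lie farthest under it among the named genes.

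The largest rises were genes that cortex hardly reads. By rule these were the 15 largest called changes in each direction among genes with a mean of 10 CPM over the 6 libraries and no overlap. Nr5a1 (chromosome 2, 38692656 to 38714542), a nuclear receptor that directs development of the adrenal gland and gonad, had 0 reads in the cortex libraries and 303, 227 and 368 CPM in the tumours, at least 2056-fold higher against a floor of 3 reads over the group. Akr1cl, an aldo-keto reductase, also had 0 reads in cortex and 185, 173 and 256 CPM in the tumours (at least 1404-fold higher). Atp6v1b1, a proton pump subunit of kidney and inner ear, had 0 reads against 39.1, 77.7 and 42.9 CPM (at least 365-fold higher). That every tumour lay above any cortex library for each of the 3 was set by the rule.

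Others in this set had a few cortex reads. Tnnt3, the fast skeletal muscle troponin T, stood at 0.537, 0.335 and 0 CPM in cortex and 343, 358 and 474 CPM in the tumours. C3, the central complement protein, stood at 0.672, 0.335 and 0.974 CPM in cortex and 429, 943 and 768 CPM in the tumours, and H19, an imprinted noncoding RNA, at 4.43, 3.52 and 2.92 CPM in cortex and 252, 4736 and 3169.5 CPM in the tumours. Wt1, a zinc finger factor of mesothelium and kidney, had 3 cortex reads in all and 170.4, 95.3 and 195 CPM in the tumours. The remaining members were Cxcl13, the B cell chemokine, at 469.7, 221 and 81.2 CPM in the tumours, Tmem184a at 107, 151 and 448, Upk3b, a uroplakin of mesothelium and urothelium, at 76.3, 79.7 and 320.4, Grifin, a galectin relative of the lens, at 272, 64.2 and 71.01, Zbp1, a sensor of Z-form nucleic acid, at 194, 184 and 73.7, Nr0b2, a nuclear receptor without a DNA-binding domain, at 102, 67.6 and 101, Mc2r, the corticotropin receptor, at 59.1, 61.97 and 83.6, and Il1rn, the interleukin 1 receptor antagonist, at 114, 189.8 and 42.8 CPM. Each of these 8 stood at no more than 0.418 CPM in any cortex library. Leaving out 1 library moved some folds by over 1.5 times. The farthest log2 fold changes were Tnnt3 9.29 without cortex library 3, H19 9.86 without tumour 1, Wt1 10.09 without cortex library 2 and Cxcl13 10.88 without tumour 3. Those of Upk3b, Grifin, Nr0b2 and Il1rn were 8.42 without tumour 3, 8.25 without tumour 1, 9.37 without cortex library 3 and 9.19 without tumour 3.

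The largest falls were mostly neuronal. Camk4, a calcium-activated kinase of neurons, fell from 438 ± 62.1 to 12.6 ± 6.62 CPM (42.4-fold). Kcnip2, a potassium channel partner, fell from 183 ± 33.9 to 4.65 ± 2.25 CPM (45.9-fold), and Camkv, a pseudokinase of synapses, fell from 612 ± 73.6 to 18.9 ± 6.59 CPM (37.5-fold). Pcp4, a calmodulin regulator, fell from 387 ± 93.2 to 13.2 ± 6.78 CPM (35.1-fold). Ttr fell the most, to 2.01, 0.55 and 0.479 CPM in the tumours. Tac1, Drd1 and Syndig1l were in this set too, and cortex replicate 3 held the highest cortex value of each: 18.4, 26.5 and 88.3, 20.01, 15.9 and 89.5 and 19.6, 11.7 and 81.4 CPM. The other members were Egr4 and Npas4, activity-induced transcription factors, at 19.6, 32.9 and 26.2 against 0.424, 0.22 and 0.479 CPM and 37.1, 34.4 and 28.7 against 0.424, 0.11 and 7.02 CPM, Grin2b, an NMDA receptor subunit, at 41.6, 30.7 and 19.9 against 0.106, 1.32 and 1.28 CPM, Cpne4, a calcium-binding copine, at 81.5, 42.9 and 74.3 against 1.06, 1.54 and 3.03 CPM, Zdbf2, an imprinted gene, at 27.9, 31.03 and 40.6 against 0.529, 0.881 and 1.28 CPM, Kcnh7, a potassium channel, at 20.7, 23.6 and 14.9 against 0.106, 0.66 and 0.957 CPM, and Galntl6, a glycosyltransferase, at 25.3, 21.6 and 19.2 against 0.212, 0.55 and 1.44 CPM. That groups did not overlap for any of the 15 was set by the rule of selection. With a library left out, 6 of these folds moved by over 1.5 times, and their log2 fold changes follow. Npas4, at -5.25 with all 6 libraries, was at -4.26 without tumour 2 and -6.66 without tumour 3. Tac1, Drd1 and Syndig1l, at -6.20, -5.24 and -5.20, were at -5.54, -4.48 and -4.41 without cortex library 3. Grin2b and Kcnh7, at -5.40 and -5.21, were at -4.54 and -4.56 without tumour 1.

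**Figure D2:**
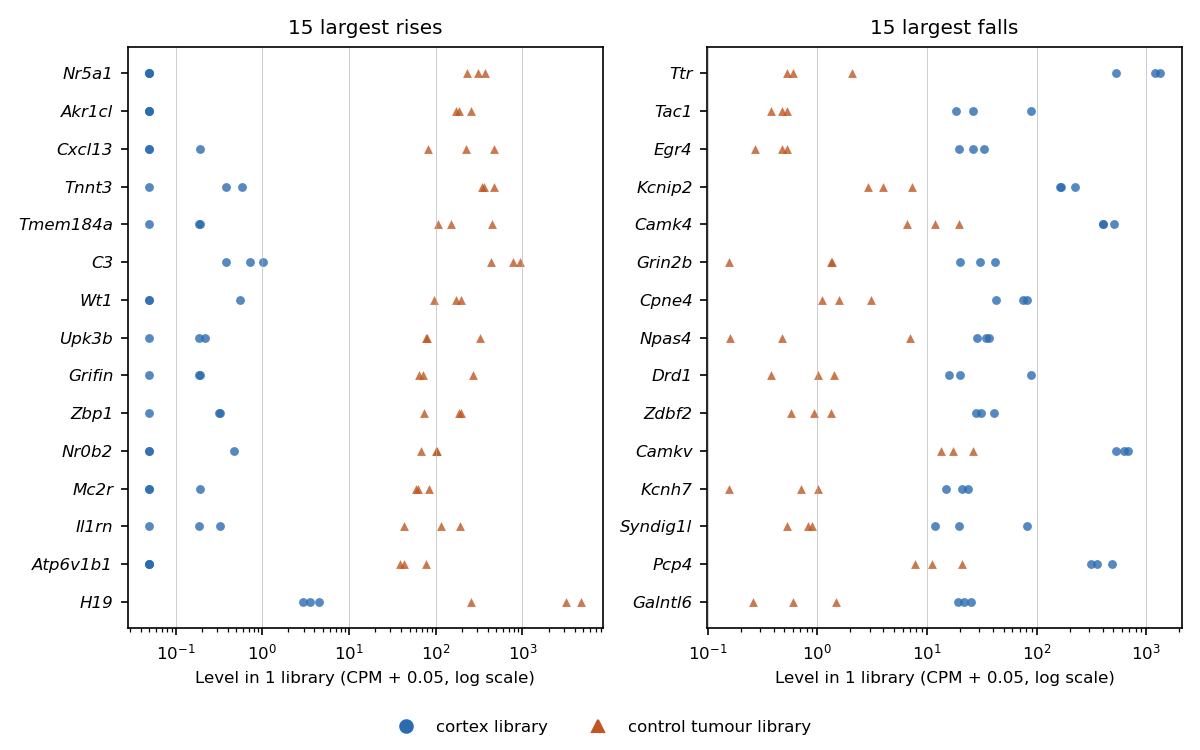
Levels of the 15 genes with the largest called rise and the 15 with the largest called fall under the rule given in the text, 1 point per library (CPM plus 0.05, log scale), circles for cortex and triangles for control tumours. Nr5a1, Akr1cl and Atp6v1b1 have 0 reads in every cortex library, H19 spreads from 252 to 4736 CPM among the tumours, and Tac1, Drd1 and Syndig1l each have 1 high cortex library.

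By reads gained and lost, the leading genes were others apart from H19. The largest gains in CPM were Apoe, a lipid carrier of glia and macrophages, from 1915 ± 183 to 6994 ± 2717 CPM (3.1-fold), Igf2, the fetal insulin-like growth factor, from 153 ± 20.2 to 4597 ± 1606 CPM (25.8-fold), and Sparc, a matrix glycoprotein, from 527 ± 27.5 to 4678 ± 709 CPM (7.82-fold). Ctsd and Ctsb, lysosomal proteases, rose 8.14-fold and 3.55-fold, and Clu, a secreted chaperone, rose 3.51-fold. Eef1a1, the translation elongation factor, rose from 2643 ± 114 to 5151 ± 274 CPM (1.73-fold), and Ckb, brain creatine kinase, rose from 1235 ± 193 to 2935 ± 434 CPM (2.11-fold). H2-K1 and B2m, the chains of a class I MHC molecule, Vim and Gfap, filaments of glia, Col1a1, a fibrillar collagen, Lyz2, macrophage lysozyme, and H19 complete the 15 largest gains. Genes of glia, macrophages, matrix and growth were among these gains. Among the largest losses was the myelin gene Mbp, from 7599 ± 877 to 1590.5 ± 625 CPM (5.69-fold). Camk2a, a kinase of the postsynaptic density, fell from 3728 ± 419 to 294 ± 89.3 CPM (14.7-fold), and Kif5a, a neuronal kinesin, fell from 3861 ± 239.9 to 531 ± 195 CPM (8.56-fold). Slc1a2, Camk2n1, Snap25, Gpm6a, Sparcl1, Ndrg4, Cpe, Syt1 and Calm2 were also among the 15 largest losses, and Cpe, a peptide-processing enzyme, and Ndrg4, a neuronal NDRG protein, fell 2.61-fold and 18.2-fold.

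Gene lists were read against the background of 35.7% called higher and 36.2% called lower. The lists held 1620 genes of the table, of which 1462 were tested, 744 were called higher and 449 lower. They are described by role, from cell identity to signalling, growth, metabolism, neuronal machinery, chromatin, matrix and immunity.

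**Figure D3:**
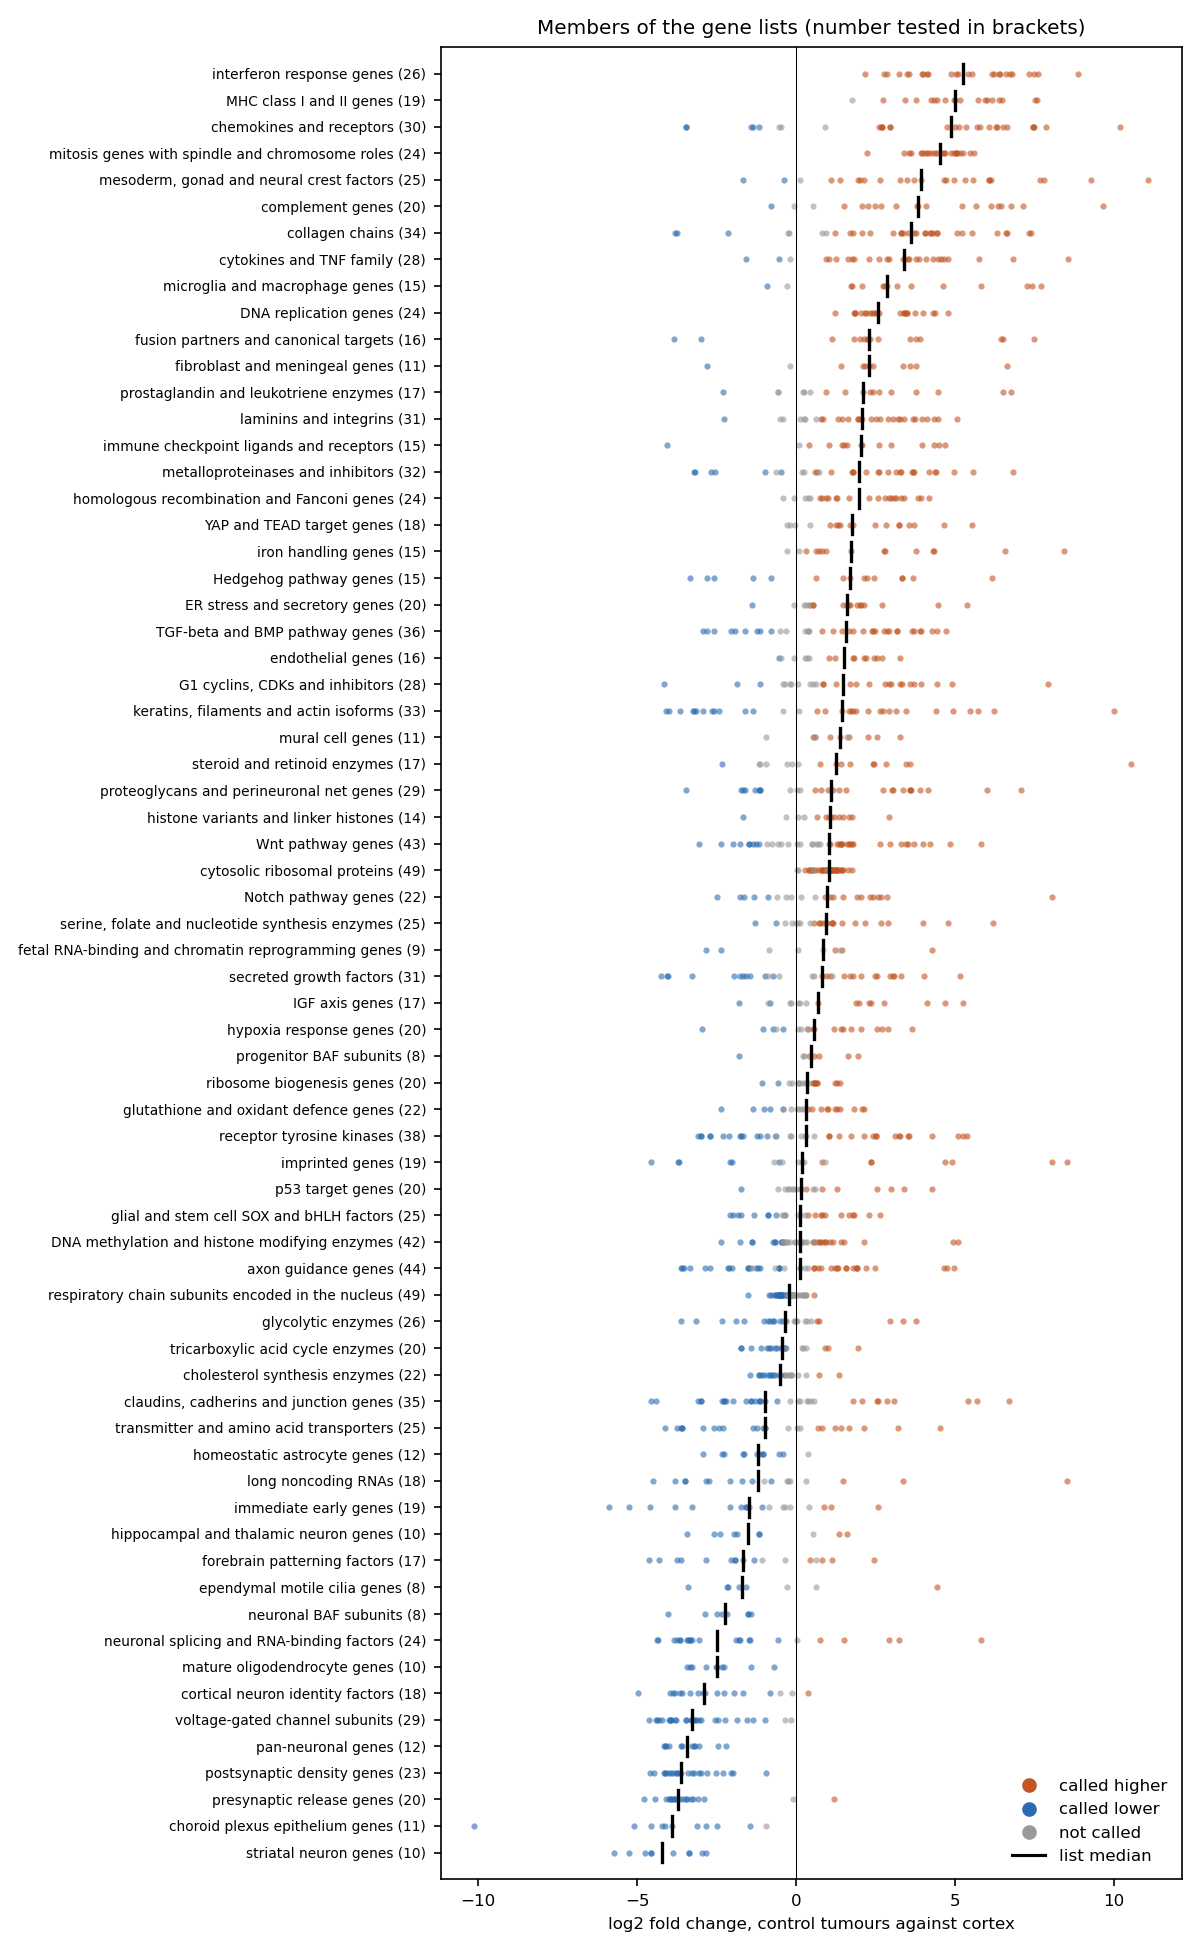
Log2 fold change of control tumours against cortex for the tested members of each list with at least 8 tested, 1 point per gene coloured by its call, with the list median as a black bar and the number tested in brackets. Medians run from -4.21 for striatal neuron genes to 5.26 for interferon response genes, and lists such as receptor tyrosine kinases, axon guidance and imprinted genes hold strong changes in both directions around a median near 0.

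Cell markers placed the losses and gains in several compartments. Among pan-neuronal, mature oligodendrocyte and striatal genes, 12 of 12, 10 of 10 and 10 of 10 were called lower. Homeostatic astrocyte genes were lower in 11 of 12 (median -1.18). The exception was Aqp4, the water channel of astrocyte endfeet, at 209 ± 12.2 CPM in cortex and 314 ± 86.2 CPM in tumours with no call. Choroid plexus genes were lower in 10 of 11: Kl, the klotho gene, fell from 19.8 ± 5.03 to 0.536 ± 0.277 CPM, and Otx2, a plexus transcription factor, had 59 reads in cortex and 0 in the tumours. Of 8 tested motile cilia genes 5 were lower and 1 higher, and Foxj1, the master factor of motile cilia, was not called (9.97 ± 1.25 CPM in cortex and 9.51 ± 3.34 CPM in tumours). Without tumour 1, Aqp4 was called higher (limma log2 fold change 0.62).

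Vessel and stromal markers were mostly higher. Endothelial genes were higher in 10 of 16: Vwf, the clotting factor of endothelium, rose from 10.3 ± 0.359 to 77.7 ± 16.4 CPM, and Emcn, the endomucin gene of venous and capillary endothelium, rose from 2.63 ± 1.25 to 28.5 ± 8.82 CPM. Genes tied to the blood-brain barrier were mixed. Cldn5, a tight junction claudin, rose (3.44-fold), Mfsd2a, a lipid transporter of barrier endothelium, fell from 55.3 ± 7.11 to 42.9 ± 6.3 CPM, and Slc2a1, the glucose transporter, and Abcb1a, a drug efflux pump, were not called (95% intervals of the log2 fold change -0.09 to 0.79 and -0.19 to 0.79). Mural genes were higher in 8 of 11 with Pdgfrb, the receptor that pericytes carry, 9.71-fold higher, and fibroblast and meningeal genes in 9 of 11. Microglia and macrophage genes were higher in 13 of 15. Lyz2 stood at 8.46, 6.37 and 4.45 CPM in cortex and 2222, 1566 and 978 CPM in the tumours, Gpnmb, a glycoprotein of lipid-laden macrophages, at 1.75, 0.671 and 1.25 CPM in cortex and 255, 281 and 201 CPM in the tumours, and Spp1, osteopontin, at 4.7, 2.85 and 3.62 CPM in cortex and 694, 914 and 449 CPM in the tumours. P2ry12, a receptor of resting microglia, fell from 99.8 ± 13.4 to 60.4 ± 10.1 CPM. The summed level of this list was 453, 504 and 461 CPM in cortex and 5668, 4805 and 3122 CPM in the tumours, lowest in tumour 3. Without tumour 3, Slc2a1 was called higher (limma log2 fold change 0.58). In the fit over 9 libraries Mfsd2a lost its call.

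Most tested transcription factors of the forebrain were low, and most tested factors of mesoderm were high. Of 18 cortical neuron identity factors tested, 15 were called lower and 1 higher (median log2 fold change -2.89). Neurod6, a bHLH factor of pyramidal neurons, fell from 94.3 ± 36.6 to 3.76 ± 2.71 CPM (31.1-fold), Tbr1, of deep layer neurons, fell from 98.5 ± 13.8 to 7.62 ± 4.04 CPM (15.5-fold), and Myt1l, which keeps neuronal identity, fell from 219 ± 12.1 to 19.5 ± 11.1 CPM (13.9-fold). Among forebrain patterning factors 4 were called higher and 10 lower among 17 tested (median log2 fold change -1.68). Dlx1, a factor of interneuron precursors, fell from 13.3 ± 2.54 to 0.642 ± 0.203 CPM and Emx1, of the pallium, fell from 14.1 ± 1.89 to 2.13 ± 0.158 CPM, while Otx1, a homeobox factor of early forebrain, rose from 4.02 ± 0.817 to 25.5 ± 3.09 CPM and Pax6, of cortical radial glia, rose from 7.29 ± 1.16 to 18.5 ± 5.77 CPM. None of the 27 HOX genes in the table, which pattern the hindbrain, spinal cord and trunk, had enough reads to be tested, and their summed level was 0.638 to 2.75 CPM in the tumours. Pax6 lost its call in the fit over 9 libraries. Of the forebrain patterning factors 2 were called higher without cortex library 3, and of the cortical identity factors 0 were without cortex library 1, cortex library 2 or tumour 2.

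SOX and bHLH factors of glia and stem cells were called at shares near those of all genes, with 11 higher and 9 lower of 25 tested (44% and 36%, against 35.7% and 36.2% of all genes). Sox9, a factor of glial and radial glial fate, rose from 19.5 ± 0.651 to 109 ± 10.9 CPM and Sox10, of the oligodendrocyte and neural crest lineages, rose from 52.8 ± 3.62 to 189 ± 24.8 CPM. Id1, an inhibitor of differentiation, rose from 10.3 ± 1.25 to 42.2 ± 12.3 CPM, whereas its relative Id4 fell from 52.5 ± 10.3 to 15.05 ± 3.17 CPM. Sox2, of neural stem cells, rose from 30.3 ± 0.53 to 61.5 ± 14.7 CPM, Sox21 fell from 11.6 ± 1.75 to 3.62 ± 0.676 CPM, and Hes5, a Notch target of neural stem cells, fell from 10.7 ± 2.36 to 4.73 ± 1.06 CPM. The sign of the list median (0.14) was not stable: without tumour 1 it was -0.05. Sox2 and Hes5 lost their calls in the fit over 9 libraries.

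Mesoderm, gonad and neural crest factors were called higher in 22 of 25 tested (median log2 fold change 3.93), and 9 further members had too few reads. Members near 0 in cortex could be tested only where the tumours had reads, so this share and median partly follow from the filter. Of all 34 members in the table, 22 were called higher. The 2 lower members were Emx2, which patterns cortex as well as gonad, and Zeb2, a zinc finger repressor (log2 fold changes -1.68 and -0.38). The call of Zeb2 was near the threshold and was lost in 11 of its 16 alternatives, with log2 fold changes of -0.24 to -0.41 when cortex library 1 or 2 or any 1 tumour was left out. In the fit over 9 libraries Emx2 also lost its call. Besides Nr5a1 and Wt1, Gata4, a factor of heart and gonad, stood at 0.134, 0 and 0 CPM in cortex and 11.97, 91.3 and 52.2 CPM in the tumours and Nr0b1, the DAX1 gene of adrenal and gonad, at 0, 0 and 0 CPM in cortex and 24.1, 20.9 and 41.3 CPM in the tumours. Tcf21, a factor of mesenchyme around kidney and gonad, had 0 reads in cortex and 20.1, 14.6 and 2.71 CPM in the tumours. Tbx2 and Tbx15, T-box factors, rose from 0.782 ± 0.0954 to 70.04 ± 16.9 CPM and from 1.44 ± 1.08 to 61.3 ± 15.6 CPM, Six2, of nephron precursors, rose from 0.601 ± 0.297 to 39.1 ± 20.7 CPM, and Twist1, a bHLH factor of mesenchyme, rose from 0.788 ± 0.323 to 30.7 ± 3.64 CPM. Every tumour held each of these 9 genes above any cortex library, which for Nr5a1 and Wt1 was part of their selection. With 1 library left out, some folds moved by over 1.5 times, farthest to log2 fold changes of 8.65 for Gata4 without tumour 1 and 7.03 for Tcf21 without tumour 3.

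Of 17 steroid and retinoid genes tested, 10 were called higher and 1 lower. Star, which carries cholesterol into mitochondria for steroid synthesis, stood at 6.96 ± 1.14 CPM in cortex and 9.03 ± 7.8 CPM in tumours with no call, and Cyp11a1, the enzyme of the first step, at 6.32 ± 1.8 CPM in cortex and 5.17 ± 5.49 CPM in tumours with no call. Cyp17a1, Cyp21a1, Hsd3b1, Hsd17b1 and Cyp19a1, later enzymes of the pathway, had too few reads to be tested. Aldh1a1, a retinaldehyde dehydrogenase, rose from 48.9 ± 5.69 to 633 ± 212 CPM (11.03-fold), and Aldh1a3, its relative, rose from 1.41 ± 0.669 to 12.04 ± 4.4 CPM. Srd5a1, a steroid reductase, was the lower member and fell from 31.4 ± 9.61 to 6.94 ± 1.67 CPM. Without tumour 3, limma called Star and Cyp11a1 lower (log2 fold changes -0.74 and -1.73), so the list had 3 lower members. It had 3 without cortex library 2 and 2 without tumour 1.

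Imprinted genes, expressed from 1 parental allele, held strong rises and strong falls, at shares of calls near those of all genes. Among 19 tested, 7 were called higher and 6 lower (36.8% and 31.6%, against 35.7% and 36.2% of all genes), with a median log2 fold change of 0.19. The sign of this median depended on the libraries, at -0.16 without cortex library 1, -0.01 without cortex library 2 and -0.20 without tumour 2. Igf2, expressed from the paternal allele, stood at 162, 167 and 130.02 CPM in cortex and 3525, 6444 and 3822 CPM in the tumours. H19, its maternally expressed neighbour, and Cdkn1c, a maternally expressed cyclin kinase inhibitor, both had their lowest tumour value in tumour 1: H19 at 252, 4736 and 3169.5 and Cdkn1c at 69.7, 531 and 634 CPM. Dlk1, a paternally expressed Notch-like ligand, stood at 2.15, 2.18 and 16.6 CPM in cortex and 948, 1848 and 1361 CPM in the tumours, but Meg3, the maternal noncoding RNA of the same cluster, fell from 1442 ± 226 to 395 ± 119 CPM. Grb10, an adaptor that restrains insulin signalling, and Igf2r, the receptor that clears IGF2, rose 5.18-fold and 5.19-fold. On the falling side, Ndn, the necdin gene of postmitotic neurons, fell from 256 ± 51.8 to 21.97 ± 5.55 CPM, Usp29 fell from 22.1 ± 6.71 to 1.9 ± 0.841 CPM and Impact, a regulator of translation, fell from 227 ± 10.7 to 62.9 ± 3.39 CPM. Snrpn had 61 reads in the cortex libraries and 0 in the tumours. Leaving out 1 library moved some folds by over 1.5 times. The farthest log2 fold changes were H19 9.86 without tumour 1, Cdkn1c 5.93 without tumour 1 and Dlk1 9.01 without cortex library 3.

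**Figure D4:**
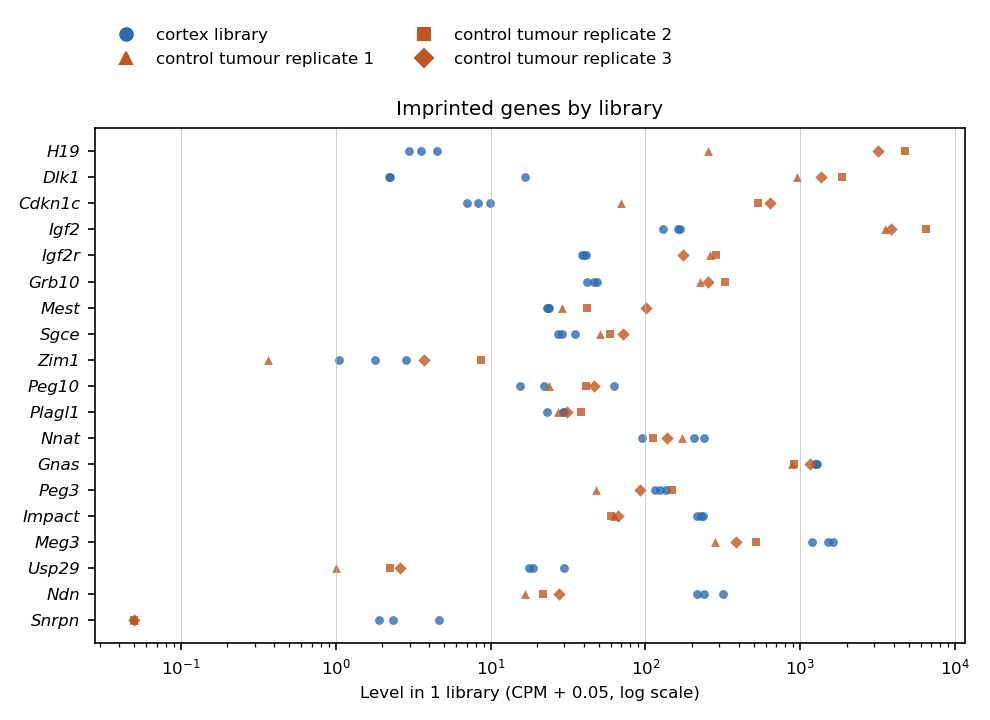
Levels of the tested imprinted genes, 1 point per library (CPM plus 0.05, log scale), with cortex as circles and the control tumours by replicate, ordered by log2 fold change. H19, Dlk1, Cdkn1c and Igf2 lie above cortex in every tumour, H19 and Cdkn1c are lowest in tumour 1, and Impact, Meg3, Usp29, Ndn and Snrpn lie under cortex in every tumour.

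Genes around Igf2 on chromosome 7 were listed in gene order, a region chosen after its values were seen. Tnnt3 (chromosome 7, 142498771 to 142516213), H19 (chromosome 7, 142575530 to 142578146), Igf2 (chromosome 7, 142650768 to 142666816) and the antisense transcript Igf2os (chromosome 7, 142659680 to 142670356) were all called higher. Igf2os stood at 0.269, 0.168 and 0.418 CPM in cortex and 119.9, 159 and 71.2 CPM in the tumours. It overlaps Igf2, and since the counting tool is not known, reads of the pair may not be fully separated. Mrpl23, a mitochondrial ribosomal protein that lies between Tnnt3 and H19, was not called (27.02 ± 0.717 CPM in cortex and 38.9 ± 7.01 CPM in tumours). On the outer side of Tnnt3, Lsp1, a leukocyte actin-binding protein, rose from 5.31 ± 1.03 to 34.2 ± 3.47 CPM and Ctsd rose from 473 ± 12.995 to 4441 ± 1116 CPM. Cd81, a tetraspanin, and Tssc4, which lie beyond Igf2, were not called (381 ± 22.1 CPM in cortex and 414 ± 89.4 CPM in tumours, and 37.3 ± 2.79 CPM in cortex and 36.4 ± 5.21 CPM in tumours). Farther on, Kcnq1, a potassium channel, rose from 0.497 ± 0.151 to 6.63 ± 3.55 CPM, Kcnq1ot1, its antisense transcript, was not called (8.34 ± 2.12 CPM in cortex and 11.5 ± 0.988 CPM in tumours), and Cdkn1c was called higher. Without tumour 2, Mrpl23 was called higher (limma log2 fold change 0.47).

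IGF axis genes, Igf2 among them, were higher in 9 and lower in 2 of 17 tested. Of 6 binding proteins 4 were called higher and 0 lower. Igfbp7 rose from 13.4 ± 2.46 to 586 ± 56.5 CPM (38.6-fold), Igfbp3 rose from 23.4 ± 4.62 to 469 ± 98.9 CPM (17.6-fold), and Igfbp2 rose from 71.4 ± 8.12 to 424 ± 201 CPM. Pappa, a protease that frees IGF from its binding proteins, rose from 0.934 ± 0.542 to 7.53 ± 3.06 CPM. The 2 lower members were Pappa2, its relative, and Irs2, an adaptor of the insulin and IGF receptors (3.28 ± 2.34 CPM in cortex and 0.858 ± 0.274 CPM in tumours, and 23.1 ± 2.5 CPM in cortex and 14.7 ± 1.73 CPM in tumours). Without cortex library 3 Pappa2 lost its call (limma log2 fold change -1.26) and the list had 1 lower member, and without tumour 1 it had 3. Igf1r, the receptor for both IGFs, Insr, the insulin receptor, and Igf1 were not called, with log2 fold changes of 0.32, 0.14 and -0.15 (95% intervals -0.11 to 0.74, -0.10 to 0.39 and -0.82 to 0.51).

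Receptor tyrosine kinases moved in both directions: 17 were called higher and 14 lower among 38 tested (median log2 fold change 0.30). These shares were 44.7% and 36.8%, against 35.7% and 36.2% of all genes. Erbb2 rose from 2.77 ± 0.759 to 122 ± 14.6 CPM (38.1-fold), whereas Erbb4, its partner in neurons, fell from 14.5 ± 3.64 to 2.04 ± 1.004 CPM (7.94-fold) and Egfr was not called (16.99 ± 4.32 CPM in cortex and 23.4 ± 5.82 CPM in tumours). Fgfr1 rose from 57.2 ± 9.92 to 373 ± 73.3 CPM (5.77-fold), while Fgfr3, of astrocytes, fell (3.17-fold). The collagen receptor Ddr1 rose from 104 ± 16.9 to 1026 ± 264 CPM (8.64-fold) and Axl, a receptor for GAS6, rose from 61.7 ± 4.11 to 831 ± 159.6 CPM (11.8-fold). Ror2, a Wnt5a receptor, rose from 0.932 ± 0.944 to 39.8 ± 12.6 CPM. Among Eph receptors, Epha2, Ephb2 and Ephb4 rose 19.4-fold, 9.58-fold and 11.5-fold, and Epha3, Epha5, Epha7 and Ephb6 fell 6.5-fold, 8.49-fold, 3.36-fold and 4.3-fold. The neurotrophin receptors Ntrk2 and Ntrk3 fell 3.34-fold and 6.53-fold. With 1 library left out, some folds moved by over 1.5 times, farthest to a log2 fold change of 6.09 for Ror2 without cortex library 1.

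Growth factors also moved in both directions, with 15 higher and 11 lower of 31 tested (48.4% and 35.5%, against 35.7% and 36.2% of all genes). Mdk, the heparin-binding factor midkine, rose from 14.6 ± 1.88 to 594 ± 39.7 CPM (36.02-fold), while Ptn, its relative pleiotrophin, fell from 349.6 ± 16.2 to 145 ± 12.9 CPM. Pdgfb, which recruits pericytes, rose from 25.2 ± 1.77 to 169 ± 40.8 CPM, Vegfa, the vessel growth factor, rose from 60.04 ± 4.86 to 282 ± 50.6 CPM, Vegfc, of lymphatic growth, rose from 2.52 ± 0.625 to 22.8 ± 4.23 CPM, and Angpt2, which loosens vessels, rose from 1.6 ± 0.131 to 20.3 ± 8.59 CPM. Csf1, the macrophage growth factor, rose from 21.4 ± 0.782 to 204 ± 44.4 CPM, and Il34, the other ligand of the same receptor, fell from 58.7 ± 8.05 to 23.3 ± 9.54 CPM. Nrg2, a neuregulin, rose from 4.12 ± 0.913 to 47.7 ± 35.7 CPM and Nrg3 fell from 34.3 ± 2.45 to 2.34 ± 0.876 CPM. Fgf12 and Fgf13, intracellular partners of sodium channels, fell 16.8-fold and 19.03-fold, and Bdnf, a neurotrophin of active neurons, fell from 31.5 ± 9.14 to 11.3 ± 4.66 CPM. Ptn lost its call in the fit over 9 libraries.

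Hedgehog signalling begins with a ligand that lifts the block of PTCH on SMO and so activates GLI factors, which in turn induce Gli1, Ptch1 and Hhip. The list gave 10 higher and 5 lower of 15. The ligand Dhh, desert hedgehog, stood at 0, 0.839 and 0.139 CPM in cortex and 14.7, 21.02 and 51.5 CPM in the tumours, and the signal transducer Smo rose from 21.99 ± 3.54 to 136 ± 11.97 CPM. Gli2, the main activator, rose from 4.6 ± 0.85 to 24.9 ± 11.6 CPM and the co-receptors Gas1 and Cdon rose 10.04-fold and 10.1-fold. The feedback targets went the other way: Gli1 stood at 2.82, 2.68 and 2.64 CPM in cortex and 0.529, 0 and 0.957 CPM in the tumours, Hhip fell from 19.03 ± 4.53 to 1.95 ± 0.225 CPM and Ptch1 fell from 26.2 ± 2.59 to 17.02 ± 1.64 CPM. Leaving out 1 library moved some folds by over 1.5 times. The farthest log2 fold changes were Dhh 7.003 without cortex library 2 and Gli1 -1.93 without tumour 2.

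Notch and Wnt genes moved in both directions with more rises. In the Notch list 12 were called higher and 5 lower among 22 tested (median log2 fold change 0.99). The receptors Notch1 and Notch2 rose 5.08-fold and 5.4-fold, Jag1, a ligand, rose 3.81-fold, and Lfng, which tunes the receptors, rose from 23.9 ± 0.711 to 199 ± 29.2 CPM, while Heyl, a target, rose from 3.53 ± 0.45 to 25.3 ± 8.21 CPM and the targets Hes5 and Hey1 fell 2.51-fold and 1.86-fold. In the Wnt list 22 were called higher and 9 lower among 43 tested (median log2 fold change 1.03). Wnt10a rose from 3.49 ± 1.78 to 241 ± 139 CPM (56.5-fold), Wnt5b rose from 1.66 ± 0.61 to 55.99 ± 13.7 CPM (28.7-fold), and the secreted modulators Sfrp1 and Rspo1 rose from 31.9 ± 7.65 to 476 ± 113 CPM and from 4.32 ± 2.2 to 58.5 ± 32.4 CPM. Wnt9a, Wnt4 and Wnt7a fell 5.08-fold, 3.94-fold and 3.36-fold. Axin2 and Lgr5, targets of the beta-catenin branch, were not called (95% intervals of the log2 fold change -0.74 to 0.23 and -2.39 to 0.57), and Lef1, both an effector and a target, rose from 4.22 ± 1.24 to 12.4 ± 3.44 CPM. Axin2 was called lower without tumour 1 and Lgr5 without tumour 3 (limma log2 fold changes -0.49 and -1.68). Hes5 lost its call in the fit over 9 libraries.

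TGF-beta and BMP genes were higher in 21 and lower in 9 of 36 tested. The ligands Inhbb, Bmp7 and Tgfb3 rose from 8.04 ± 0.757 to 199.8 ± 36.9 CPM, from 17.998 ± 0.834 to 314 ± 76.7 CPM and from 11.9 ± 1.68 to 176 ± 4.54 CPM, and the type II receptor Tgfbr2 rose from 16.2 ± 2.49 to 167 ± 33.1 CPM. Targets rose as well: Tgfbi, a matrix protein, rose from 4.31 ± 1.05 to 143 ± 69.4 CPM and the inhibitory Smad6 rose from 0.972 ± 0.123 to 19.5 ± 7.54 CPM. The BMP antagonists Nog and Chrd fell 6.01-fold and 3.75-fold.

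The YAP and TEAD list had 14 higher and 0 lower of 18 (median 1.75). YAP and TAZ are co-activators, restrained by the Hippo kinases, that act through TEAD factors. Wwtr1, which encodes TAZ, rose from 24.2 ± 2.17 to 193 ± 1.8 CPM and Yap1 rose from 29.4 ± 1.96 to 116 ± 19.8 CPM. Of the factors, Tead2 rose from 4.08 ± 1.25 to 119 ± 34.3 CPM and Tead3 rose from 2.52 ± 0.743 to 38.3 ± 5.53 CPM. Among targets, Cyr61, a matricellular protein, rose from 15.5 ± 4.36 to 103 ± 41.3 CPM and Nuak2, a kinase, rose from 0.854 ± 0.377 to 48.9 ± 5.2 CPM.

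Cell cycle genes moved in 1 direction. Mitosis genes were higher in 24 of 24 and replication genes in 24 of 24 (medians 4.52 and 2.58). Bub1b, a checkpoint kinase, rose from 1.36 ± 0.0286 to 74.95 ± 14.4 CPM (44.5-fold), Top2a, the topoisomerase of chromosome segregation, rose from 4.82 ± 0.952 to 185 ± 43.6 CPM (32.9-fold), and Tyms, thymidylate synthase, rose from 1.49 ± 0.139 to 50.6 ± 10.6 CPM (27.5-fold). Recombination and Fanconi genes, which repair forks and breaks, were higher in 19 of 24 and lower in 0. Brip1, a helicase partner of BRCA1, rose from 0.396 ± 0.119 to 10.5 ± 1.61 CPM and Fanca rose from 0.667 ± 0.238 to 13.1 ± 2.22 CPM, while Atm and Fancm were not called (95% intervals of the log2 fold change -0.06 to 0.61 and -0.55 to 0.40).

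Promoters of these lists were searched for the short sequences through which cell cycle genes are known to be switched. RefSeq promoter windows of build GRCm38.p6, 250 bases before to 50 after the start, were matched for 20 mitosis genes (21 windows), 19 replication genes (23 windows) and 19 interferon genes (24 windows). Letters were sought on both strands. The cell cycle homology region TTTGAA was present in 71.4% of mitosis windows, 13% of replication windows and 17.9% of all 32851 windows. The box CCAAT was present in 81%, 56.5% and 37.4%. The E2F site TTTCGCGC or TTTGGCGC was present in 4.76%, 34.8% and 0.813%. A match is a description of the letters and not a site of binding. Lists of known cell cycle genes hold such letters whatever the tumours do, so these shares describe the lists.

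The promoters of Cdk1, the mitotic kinase, and Mcm3, a helicase subunit, carry the letters that were more frequent in their lists than in all windows. They were picked for a large fold change among list members with these letters. Capitals mark the cell cycle homology region and the CCAAT box (read from the other strand) in Cdk1 (minus strand, chr10:69352863-69353162) and the E2F site in Mcm3 (minus strand, chr1:20820263-20820562). In Cdk1, the cell cycle homology region begins at -71 and -15 from the start, and the CCAAT box at -208, -80 and -48. In Mcm3 the match begins at 38. Other matches, such as TTTCGCGC in Cdk1, are left in lower case.
Cdk1: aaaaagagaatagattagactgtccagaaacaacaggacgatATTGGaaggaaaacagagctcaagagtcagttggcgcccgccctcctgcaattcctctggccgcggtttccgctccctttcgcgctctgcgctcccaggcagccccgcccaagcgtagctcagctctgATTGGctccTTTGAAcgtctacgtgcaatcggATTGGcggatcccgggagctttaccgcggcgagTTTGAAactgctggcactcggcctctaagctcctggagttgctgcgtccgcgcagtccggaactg
Mcm3: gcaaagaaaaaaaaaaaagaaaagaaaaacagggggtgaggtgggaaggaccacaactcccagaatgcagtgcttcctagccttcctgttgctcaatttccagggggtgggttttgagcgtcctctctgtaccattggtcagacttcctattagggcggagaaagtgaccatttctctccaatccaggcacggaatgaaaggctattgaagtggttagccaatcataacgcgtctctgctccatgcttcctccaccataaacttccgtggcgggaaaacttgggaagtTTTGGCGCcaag

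G1 regulators combined accelerators with their inhibitors. Of 28 genes, 17 were higher and 3 lower. The D cyclins Ccnd1 and Ccnd3 rose from 46.2 ± 4.65 to 639.9 ± 147 CPM and from 20.6 ± 0.794 to 502 ± 17.97 CPM, with Cdk4, their kinase, 4.98-fold and Cdk6 15.4-fold higher. Cdkn2a, which encodes the inhibitors INK4A and ARF, stood at 0.134, 0.168 and 0.696 CPM in cortex and 91.1, 125 and 110.1 CPM in the tumours, and Cdkn2b, its neighbour, rose from 1.07 ± 0.206 to 17.9 ± 5.81 CPM. Mtap, a methionine salvage enzyme beside them, and Dmrta1 were called higher as well, so that 4 neighbours on chromosome 4 (89137370 to 89694766) rose together at least 4-fold. Cdkn1a and Cdkn1b, the p21 and p27 inhibitors, were not called (95% intervals of the log2 fold change -0.04 to 1.10 and -0.43 to 0.11). Myc rose from 4.57 ± 0.615 to 17.1 ± 1.72 CPM, Mycl fell from 30.2 ± 4.87 to 9.6 ± 2.91 CPM, and Mycn was not called (9.28 ± 0.735 CPM in cortex and 8.89 ± 4.49 CPM in tumours). Cdk5r1, the activator of the neuronal kinase CDK5, fell from 306 ± 27.1 to 20.6 ± 9.3 CPM. Cdkn1a was called higher without tumour 3 or without cortex library 2 (limma log2 fold changes 0.71 and 0.75), and Mycn lower without tumour 2 (-0.74).

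The target list of p53, to which ARF is a known input, was called higher at about the background share. Trp53 rose from 15.9 ± 3.11 to 43.3 ± 3.3 CPM (2.43-fold). In the list 7 were called higher and 1 lower of 20 tested, against backgrounds of 35.7% and 36.2%. Fas, a death receptor, rose from 1.81 ± 0.249 to 18.1 ± 7.04 CPM, Tnfrsf10b, another, rose from 0.577 ± 0.0861 to 8.19 ± 0.808 CPM, and Zmat3, an RNA-binding target, fell from 121 ± 11.6 to 41.2 ± 5.25 CPM. Mdm2, Ccng1, Sesn1 and Phlda3 were not called, with log2 fold changes of -0.01, -0.05, -0.23 and 0.15.

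Energy metabolism was lower by a small margin in many genes in the deposited scaling. Nuclear-encoded respiratory chain subunits were called lower in 23 and higher in 1 of 49, with a median log2 fold change of -0.23. In CPM their summed level overlapped between the groups: 10694, 11792 and 12001 in cortex and 11061, 9453 and 11028 in the tumours. Cox7b, a subunit of cytochrome oxidase, fell from 439 ± 39.6 to 175 ± 12.4 CPM (2.82-fold), and the others lay within 2-fold. Tricarboxylic acid cycle enzymes were lower in 13 and higher in 3 of 20, with summed levels of 4485 to 4600 CPM in cortex and 3188 to 3740 CPM in tumours. Mdh1 and Pdha1, malate and pyruvate dehydrogenase subunits, fell 3.33-fold and 3.29-fold, while Idh2, the NADP-linked isocitrate dehydrogenase of mitochondria, rose from 57.4 ± 3.59 to 255 ± 51.1 CPM. Glycolytic enzymes were lower in 13 and higher in 5 of 26, with summed levels of 10931 to 11494 CPM in cortex and 7568 to 8990 CPM in tumours. Isoforms differed: Hk1, the brain hexokinase, fell from 318 ± 15.6 to 193 ± 4.28 CPM and Hk2 rose from 4.55 ± 0.491 to 57.4 ± 25.2 CPM, Pfkm fell 3.67-fold while Pfkl was not called, and Slc2a3, the neuronal glucose transporter, fell from 188 ± 3.51 to 24.2 ± 5.97 CPM. Slc16a3, which exports lactate, rose from 3.98 ± 1.46 to 34.9 ± 10.8 CPM. Gapdh and Ldha were not called, with log2 fold changes of 0.01 and 0.28. Without tumour 1, Ldha was called higher (limma log2 fold change 0.41).

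Hypoxia response genes were higher in 12 and lower in 4 of 20. Car9 and Car12, carbonic anhydrases, rose from 0.588 ± 0.0721 to 10.99 ± 5.76 CPM and from 21.4 ± 3.76 to 179.7 ± 16.3 CPM, and Egln3, an oxygen sensor of the pathway, rose from 10.5 ± 1.36 to 81.4 ± 30.2 CPM, whereas Bnip3, of mitophagy, fell from 141 ± 19.7 to 81.2 ± 28.3 CPM and Hif3a fell from 11.2 ± 1.37 to 1.71 ± 1.18 CPM. Nucleotide and folate enzymes were higher in 17 and lower in 2 of 25. Rrm2, of ribonucleotide reductase, rose from 4.03 ± 1.18 to 72.8 ± 12.8 CPM, Mthfd2, of mitochondrial folate metabolism, rose from 5.71 ± 0.297 to 50.01 ± 11.2 CPM and Shmt1 rose from 1.9 ± 0.61 to 14.2 ± 2.95 CPM. Psat1, of serine synthesis, fell from 201 ± 10.9 to 149 ± 25.3 CPM. Cholesterol enzymes were mostly lower, with 13 lower and 2 higher of 22 (median -0.50): Hmgcs1, an early enzyme of the pathway, fell from 476 ± 17.7 to 246 ± 72.6 CPM.

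Iron and eicosanoid genes were mostly higher. Iron handling genes were higher in 13 and lower in 0 of 15. Lcn2, lipocalin 2, which binds bacterial iron carriers, stood at 0.537, 0.168 and 0.139 CPM in cortex and 217, 108 and 126 CPM in the tumours. Cp, ceruloplasmin, and Hmox1, haem oxygenase, rose from 13.2 ± 1.68 to 306 ± 86.3 CPM and from 6.46 ± 0.574 to 154 ± 38.5 CPM, and Ftl1 and Fth1, the ferritin chains, rose 3.32-fold and 1.78-fold, while Tfrc, the transferrin receptor, was not called (125 ± 15.9 CPM in cortex and 115 ± 13.7 CPM in tumours). Among eicosanoid enzymes 11 were higher and 1 lower of 17. Ptges, prostaglandin E synthase, rose from 7.59 ± 1.997 to 193 ± 41.3 CPM and Alox12, a lipoxygenase, rose from 0.486 ± 0.0617 to 75.6 ± 14.96 CPM, Alox15 had 0 reads in cortex and 13.8, 11.7 and 11.6 CPM in the tumours, and Ptgds, the prostaglandin D synthase of meninges and oligodendrocytes, fell from 904 ± 176 to 235 ± 122 CPM. Ptgs2, the inducible cyclooxygenase, was not called (23.9 ± 13.8 CPM in cortex and 16.8 ± 4.66 CPM in tumours). Tfrc was called lower without tumour 3 or without cortex library 3 (limma log2 fold changes -0.36 and -0.41).

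Translation genes changed by moderate amounts. Ribosomal protein genes were higher in 45 and lower in 0 of 49 tested (median 1.03), and 0 of them rose 4-fold. Rplp0, of the ribosomal stalk, rose from 314 ± 20.9 to 1205 ± 195 CPM (3.38-fold) and Rps6 rose from 283 ± 11.5 to 691 ± 70.98 CPM (2.16-fold). Ribosome biogenesis genes were higher in 9 and lower in 2 of 20, with Npm1 2.42-fold and Fbl 2.6-fold higher. Genes with near-identical processed copies may lose reads in counting: Rpl26 is listed at 0 in all libraries, and Eno1, a glycolytic enzyme, at only 4.84, 3.52 and 4.32 CPM in cortex. Secretory and ER stress genes were higher in 15 of 20. The chaperones Calr and Pdia4 rose from 344 ± 3.49 to 1563 ± 99.1 CPM and from 35.1 ± 0.651 to 264 ± 43.5 CPM, and Trib3 and Atf3, of the stress response, rose from 0.352 ± 0.193 to 20.8 ± 2.82 CPM and from 0.542 ± 0.127 to 16.9 ± 5.95 CPM, whereas Asns, asparagine synthetase and a target of the same response, fell from 85.2 ± 3.13 to 37.3 ± 8.39 CPM and Ddit3 was not called (20.4 ± 2.89 CPM in cortex and 22.2 ± 2.63 CPM in tumours).

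Neuronal machinery was lower across its parts. Postsynaptic density genes were lower in 23 of 23, presynaptic release genes in 18 of 20, and voltage-gated channel subunits in 27 of 29 with 0 higher (medians -3.61, -3.73 and -3.28). Unc13a, a priming factor of vesicles, fell from 314 ± 6.2 to 16.8 ± 5.85 CPM (21.8-fold), Dlg2, a scaffold, fell from 639.7 ± 51.9 to 34.5 ± 16.1 CPM (22.4-fold), and Scn2a1, a sodium channel, fell from 335 ± 25.1 to 18.9 ± 9.27 CPM (21.3-fold). Among these lists Vamp3, a SNARE of general membrane traffic, rose from 47.2 ± 3.998 to 123 ± 7.74 CPM. Kcnj10, the potassium channel of astrocytes, Cacna1h, a T-type calcium channel subunit, and Snapin were not called (409 ± 90.8 CPM in cortex and 412 ± 21.6 CPM in tumours, 43.5 ± 9.26 CPM in cortex and 39.8 ± 16.6 CPM in tumours, and 59.9 ± 9.03 CPM in cortex and 62.5 ± 5.99 CPM in tumours). Without tumour 2, Cacna1h was called lower (limma log2 fold change -0.69). In each of these 3 lists tumour 3 held the highest summed level of the tumours.

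Transporters moved in both directions, 8 higher and 14 lower of 25. The glutamine transporter Slc1a5 rose from 2.2 ± 0.275 to 60.9 ± 4.59 CPM (23.4-fold), and Slc7a5 with its partner Slc3a2, which import large neutral amino acids, rose from 51.8 ± 8.4 to 267 ± 92.01 CPM and from 103 ± 7.65 to 275 ± 57.8 CPM. The vesicular carrier of GABA, Slc32a1, fell 17.4-fold, and Slc17a7, the vesicular glutamate carrier, fell 11.97-fold. Immediate early genes were lower in 11 and higher in 3 of 19: Egr3 fell from 129 ± 31.2 to 11.5 ± 7.4 CPM, Arc fell from 459 ± 141 to 25.001 ± 18.7 CPM and Nr4a2 fell from 34.2 ± 11.99 to 3.79 ± 1.11 CPM, but Ier3, Ier2 and Jun rose 6.05-fold, 2.16-fold and 1.86-fold.

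Chromatin and splicing factors differed by their neuronal or general use. Subunits of the BAF remodelling complex listed as neuronal were lower in 8 of 8, and those listed as progenitor were higher in 5 and lower in 1 of 8. Neither list is restricted to its cell type. Smarca2 of the first stood at 85.4 ± 18.5 CPM in tumours, and Smarca4 of the second at 135 ± 17.8 CPM in cortex. Actl6b fell from 68.1 ± 19.6 to 4.67 ± 1.68 CPM, and its progenitor counterpart Actl6a rose from 13.9 ± 1.4 to 61.3 ± 4.6 CPM. Neuronal splicing and RNA-binding factors were lower in 18 and higher in 5 of 24. Rbfox1 fell from 331 ± 18.8 to 19.6 ± 10.2 CPM, Celf5 fell from 203 ± 11.8 to 11.6 ± 4.44 CPM and Srrm4, which includes neuronal microexons, fell from 32.9 ± 3.21 to 3.36 ± 0.758 CPM. The higher members included Ptbp1, which represses neuronal splicing (from 27.6 ± 2.25 to 297 ± 35.2 CPM), Rest, the repressor of neuronal genes (from 2.77 ± 0.504 to 24.9 ± 5.05 CPM), and Mbnl3 (from 0.293 ± 0.137 to 25.1 ± 3.35 CPM).

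Among DNA and histone modifying enzymes 15 were higher and 11 lower of 42 tested (35.7% and 26.2%, against 35.7% and 36.2% of all genes). Uhrf1, which guides maintenance methylation in S phase, rose from 3.19 ± 0.461 to 118 ± 35.04 CPM (30.8-fold), Ezh2, the H3K27 methyltransferase, rose from 8.17 ± 0.572 to 41.3 ± 5.3 CPM and Hdac1 rose from 26.8 ± 1.15 to 87.8 ± 14.2 CPM, while its relatives Hdac5, Hdac9 and Hdac11 fell 2.62-fold, 3.38-fold and 2.64-fold. Tgm2, the transglutaminase that attaches serotonin to histone H3, rose from 10.97 ± 0.958 to 428 ± 61.3 CPM (34.1-fold). Tet1, a methylcytosine oxidase, fell from 22.9 ± 5.42 to 4.98 ± 1.66 CPM. Histone variants were higher in 10 and lower in 1 of 14, with H2afy, which encodes macroH2A1, 3.4-fold higher and H3f3b, of H3.3, 2.77-fold higher. Long noncoding RNAs were lower in 10 and higher in 3 of 18. Neat1, of paraspeckles, rose from 29.3 ± 2.39 to 341 ± 27.96 CPM and Malat1, of nuclear speckles, fell from 365 ± 49.5 to 157 ± 9.91 CPM.

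Pairs of related genes with a neuronal and a general member were compared within each library, which removes scaling between libraries. In all 18 pairs the neuronal member was called lower. The general member was called higher in 10 pairs and lower in 4. The ratio of neuronal to general member was lower in every tumour than in any cortex library in all 18, including the 4 pairs in which both fell. Eno1, the general member of 1 pair, was read at only 4.22 ± 0.662 CPM in cortex and 3.69 ± 0.239 CPM in tumours. It may lose reads in counting, so the ratio of that pair mainly follows its neuronal member. For Ptbp2 over Ptbp1 the log2 ratio was 1.93, 2.02 and 2.05 in cortex and -3.36, -2.999 and -2.75 in the tumours. For Dnm1 over Dnm2, dynamins of synaptic and general endocytosis, it was 3.87, 4.21 and 3.85 against -1.22, -1.06 and 0.38. The smallest shift was in Mapk10 over Mapk9, JNK kinases, from 0.46 on average to -1.11. Tumour 3 had the ratio nearest to cortex in all 18 pairs. The 2 genes of a pair differ in length, so the change of a ratio can be read and its absolute value cannot.

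**Figure D5:**
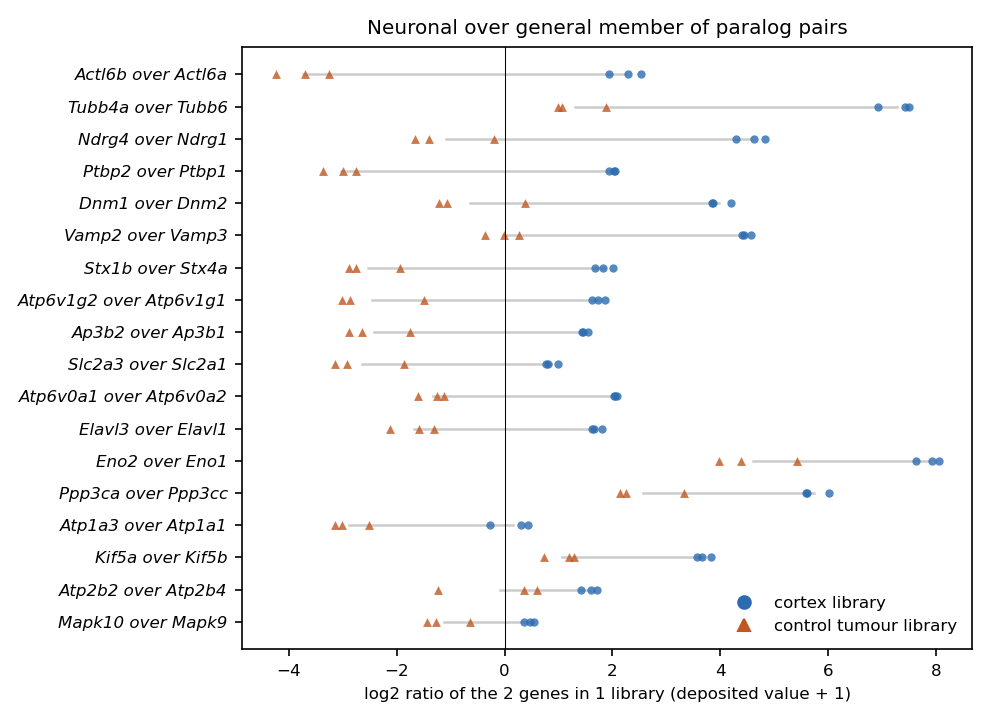
Log2 ratio of the neuronal to the general member of 18 gene pairs, 1 point per library (deposited value plus 1), with grey lines joining the group means. All 3 tumours lie under all 3 cortex libraries in every pair, from a shift of 5.98 for Actl6b over Actl6a to 1.57 for Mapk10 over Mapk9.

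The extracellular matrix was raised in most chains. Collagen genes were higher in 27 and lower in 3 of 34 tested (median 3.62). Col18a1, of basement membranes, rose from 5.62 ± 0.385 to 1076 ± 269 CPM (163-fold), Col16a1 rose from 13.9 ± 0.874 to 749 ± 158 CPM (46.6-fold) and Col4a1, the main basement membrane chain, rose from 51.7 ± 8.47 to 969.6 ± 56.8 CPM (16.7-fold). Chains typical of cartilage were among them: Col9a3 rose from 38.7 ± 1.9 to 1223 ± 989.8 CPM, and Col2a1 stood at 0.537, 0.503 and 0.418 CPM in cortex and 14.1, 699 and 154 CPM in the tumours. The falls were Col19a1, Col25a1 and Col26a1, which fell 13.9-fold, 13.3-fold and 4.44-fold. Laminins and integrins were higher in 24 and lower in 1 of 31. Itga5, the fibronectin receptor chain, rose from 6.92 ± 2.8 to 259 ± 60.6 CPM, Itga9, a receptor for tenascin, rose from 11.999 ± 5.66 to 225 ± 42.6 CPM, and Lama5 rose from 9.98 ± 2.52 to 147 ± 37.7 CPM. With 1 library left out, some folds moved by over 1.5 times, farthest to log2 fold changes of 5.11 for Col9a3 and 8.91 for Col2a1, both without tumour 1. Col2a1 lost its call with limma-voom.

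Proteoglycans were higher in 17 and lower in 8 of 29. Sdc1, syndecan 1, rose from 2.73 ± 0.685 to 434 ± 90.8 CPM (136-fold), Gpc4 rose from 10.96 ± 2.57 to 221 ± 38.3 CPM and Cd44, the hyaluronan receptor, rose from 6.23 ± 0.773 to 113 ± 41.8 CPM. Perineuronal net genes were not a unit: the net core protein Acan stood at 3.09, 2.18 and 3.76 CPM in cortex and 98.4, 506 and 221 CPM in the tumours, whereas the link proteins Hapln1 and Hapln4 and Tnr, which bind it in nets, fell 3.29-fold, 3.17-fold and 3.06-fold. Metalloproteinases and inhibitors were higher in 22 and lower in 6 of 32. Mmp14, a membrane collagenase, rose from 12.9 ± 2.16 to 308 ± 72.5 CPM (20.7-fold), Mmp23 rose from 0.419 ± 0.252 to 74.5 ± 51.1 CPM and the inhibitor Timp1 rose from 1.26 ± 0.698 to 66.1 ± 9.55 CPM, while Mmp17 and Mmp24 fell 9.08-fold and 9.26-fold. Leaving out 1 library moved some folds by over 1.5 times, at the farthest to a log2 fold change of 5.39 for Acan without tumour 2.

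Adhesion and filament genes moved in both directions. Of junction genes 19 were lower and 9 higher among 35. Cadherins of neurons such as Cdh8 and Cdh18 fell 21.1-fold and 7.998-fold, whereas Cdh3, placental cadherin, rose from 0.798 ± 0.465 to 45.9 ± 31.97 CPM and Cldn2, a pore-forming claudin of leaky epithelia, rose from 3.61 ± 1.99 to 198 ± 39.5 CPM. Gjd2, the neuronal connexin 36, fell from 8.9 ± 1.21 to 0.373 ± 0.371 CPM. Among filament genes Krt18, an epithelial keratin, rose from 1.31 ± 0.609 to 54.7 ± 35.5 CPM without its usual partner Krt8, which had too few reads to be tested. Lmnb1, a nuclear lamin of dividing cells, rose from 10.1 ± 1.85 to 87.6 ± 9.64 CPM and S100a11, a calcium-binding protein, rose from 4.27 ± 0.0664 to 373 ± 61.2 CPM. Other troponins were not called higher: Tnnc1 and Tnnt2 fell 7.59-fold and 6.03-fold, and Tnnt1 was not called (4.04 ± 1.17 CPM in cortex and 5.54 ± 3.93 CPM in tumours). Axon guidance genes were called at shares near those of all genes, 19 higher (43.2%) and 18 lower (40.9%) of 44. Sema3b and Sema3f, secreted semaphorins, rose from 3.45 ± 0.0972 to 128 ± 28.1 CPM and from 12.9 ± 6.14 to 379 ± 94.7 CPM, and Efnb1 rose from 11.002 ± 0.968 to 317 ± 33.7 CPM, while Efnb3, Dcc and Unc5d fell 11.6-fold, 9.99-fold and 12.3-fold. With 1 library left out, some folds moved by over 1.5 times, farthest to a log2 fold change of -3.34 for Tnnt2 without tumour 3.

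Interferon response and MHC genes had the 2 highest medians among lists with at least 8 genes tested. All 26 interferon response genes were called higher, each at least 4-fold (median 5.26). Irf7, which amplifies interferon production, rose from 0.929 ± 0.572 to 219 ± 87.3 CPM (198-fold), and Isg15, a ubiquitin-like protein, rose from 1.06 ± 0.63 to 139 ± 47.5 CPM (112-fold). MHC genes were higher in 18 of 19. H2-K1 stood at 23.1, 18.3 and 19.8 CPM in cortex and 2678, 2578 and 1049 CPM in the tumours and Psmb8, an immunoproteasome subunit, at 2.42, 2.01 and 1.95 CPM in cortex and 316, 336 and 111 CPM in the tumours. H2-Aa, a class II chain, stood at 1.34, 3.19 and 1.67 CPM in cortex and 677, 894 and 130.1 CPM in the tumours, and H2-Eb1, of another class II pair, was not called (1.26 ± 0.679 CPM in cortex and 6.82 ± 5.89 CPM in tumours). For each of these 3 called MHC genes tumour 3 was the lowest tumour. Leaving out 1 library moved some folds by over 1.5 times, at the farthest to a log2 fold change of 8.42 for H2-Aa without tumour 3. H2-Eb1 was called higher by edgeR, by DESeq2 and without tumour 3 (log2 fold changes 2.29, 2.31 and 2.75).

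The interferon-stimulated response element, searched as GAAA, then any 2 bases, then GAAA, was present in 45.8% of the promoter windows of the interferon list, in 12.5% of those of genes called at least 16-fold higher and in 3.44% of all windows. The kappaB letters, searched as GGG, then any 2 bases, then TTTCC, were present in 31.2% of the 16 windows of the fusion partners and canonical targets, in 3.73% of those of genes called at least 16-fold higher and in 1.63% of all windows. A gene with several starts has several windows: counted by gene, these shares were 25% (3 of 12 genes), 4.05% and 1.89%, and those of the interferon element 57.9%, 13.9% and 3.99%. Both were sought on both strands, and matches that overlap count once for a window. The 2 lists were drawn up from genes already known to respond to interferon or NF-kB. Their higher shares were therefore set by that choice and are no result about these tumours. Of the 16 fusion partners and canonical targets, 14 were called higher and 2 lower.

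The promoter of Isg15 (minus strand, chr4:156200769-156201068) is shown for its 3 overlapping matches, which begin at -78, -72 and -66 from the start. They form 1 block, given in capitals. A member of the list with these letters and a larger fold change is not shown.
Isg15: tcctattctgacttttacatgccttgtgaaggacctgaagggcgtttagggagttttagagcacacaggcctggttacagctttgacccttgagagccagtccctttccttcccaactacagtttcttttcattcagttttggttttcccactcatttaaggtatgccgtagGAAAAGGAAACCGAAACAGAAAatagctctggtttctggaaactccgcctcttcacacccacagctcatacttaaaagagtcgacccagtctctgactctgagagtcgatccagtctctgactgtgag

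Complement, chemokine and cytokine genes rose in large numbers. Complement genes were higher in 17 and lower in 1 of 20. C1s1 and C4b, of the classical pathway, rose from 0.859 ± 0.304 to 124 ± 49.1 CPM and from 16.3 ± 2.52 to 684 ± 65.8 CPM, and C3ar1, a receptor for a C3 fragment, rose from 1.14 ± 0.411 to 117 ± 39.6 CPM. Chemokine genes were higher in 22 and lower in 5 of 30. Ccl12, a monocyte attractant, stood at 0.537, 0.168 and 0.139 CPM in cortex and 112, 63.6 and 51.7 CPM in the tumours and Cxcl16 rose from 2.59 ± 0.843 to 129.97 ± 54.2 CPM, whereas Ccl27a fell from 114 ± 20.3 to 11.97 ± 4.45 CPM, Ccl19 fell from 45.7 ± 10.8 to 4.68 ± 1.58 CPM and the neuronal chemokine Cx3cl1 fell from 859 ± 109 to 385 ± 148 CPM. Ccl27a and Ccl19 lie in a region of near-identical copies, in which counting can split reads. Cytokine genes were higher in 25 and lower in 2 of 28: Lif rose from 0.521 ± 0.171 to 90.9 ± 58.7 CPM (114-fold), Osmr, the oncostatin M receptor, rose from 3.68 ± 0.755 to 84.98 ± 10.8 CPM (20.02-fold), Tnfrsf12a, the TWEAK receptor, rose from 5.38 ± 1.12 to 156 ± 14.4 CPM and Tnfrsf1a, a TNF receptor, rose from 10.5 ± 1.31 to 201 ± 4.58 CPM. Il6 and Il10 had too few reads to be tested.

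Checkpoint ligands and receptors, which regulate lymphocytes in either direction, were higher in 13 and lower in 1 of 15. Lgals9, a ligand of TIM-3, rose from 8.57 ± 1.16 to 221 ± 38.8 CPM (22.5-fold) and Cd86 rose from 3.87 ± 0.751 to 36.1 ± 10.3 CPM. Cd274, which encodes PD-L1, stood at 1.75, 1.01 and 0.835 CPM in cortex and 36.3, 42.9 and 6.7 CPM in the tumours, lowest in tumour 3. Ido1, a tryptophan-degrading enzyme that interferon is known to induce, had 90 reads in cortex and 3 in the tumours (log2 fold change -4.06, and -3.36 without cortex library 3). Cd79a, a B cell receptor chain, stood at 0.537, 0.671 and 0.974 CPM in cortex and 9.001, 12.5 and 104 CPM in the tumours, while Ms4a1, which B cells also carry, had too few reads to be tested. With 1 library left out, some folds moved by over 1.5 times. The farthest log2 fold changes were Cd274 4.83 without tumour 3, Ido1 -3.36 without cortex library 3 and Cd79a 3.55 without tumour 3. Cd79a lost its call with limma-voom.

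Neighbouring genes that moved together were listed as runs of at least 4 adjacent tested genes, each called and at least 4-fold changed in 1 direction. There were 38 runs of higher genes and 19 of lower genes among 14556 genes with a position. The longest 3 held 10 genes each: on chromosome 1, with Aim2 and the interferon-inducible Ifi204, Ifi203 and Ifi205, from Serpina3b to Gsc on chromosome 12 (104127986 to 104473236), a cluster of serine protease inhibitors, and from H2-DMa to H2-Aa on chromosome 17 (34119693 to 34287823), of antigen processing. Runs of 9 genes held the immunity-related GTPases from Irgm1 to Ifi47 and the Schlafen genes from Slfn5 to AI662270, both on chromosome 11. Serpina3n, an acute phase inhibitor of astrocytes, rose from 37.97 ± 14.4 to 1029 ± 97.7 CPM and Serpina3g rose from 2.56 ± 0.345 to 186 ± 99.6 CPM. Members of such families are near-identical copies, so counting may have split or lost reads between them.

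The longest run of lower genes was the alpha protocadherin cluster, 9 genes from Pcdha2 to Pcdhac2 on chromosome 18, which label neuronal surfaces and share their 3′ exons, so their reads are not fully separate. Pcdhac2 fell from 28.05 ± 1.47 to 3.97 ± 2.47 CPM. Another 7 genes, from Ipw through Snrpn and Ndn to Mkrn3, lie in the imprinted region of chromosome 7 (59619158 to 62420153). A lower run of 4 genes on chromosome 5, from Gabrg1 to Gabrb1, held GABA receptor subunits. Whole chromosomes differed little: the median log2 fold change ran from -0.24 on X and -0.21 on 12 to 0.14 on 17.

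Tumours varied more among themselves than cortex libraries did. Over 6841 genes with at least 20 CPM in both groups, the median SD of log2 values was 0.109 in cortex and 0.18 in tumours, and the SD was larger in tumours for 72.1% of genes. Among genes with a mean of at least 20 CPM in tumours, those of largest SD included Xist, the noncoding RNA of X inactivation, at 0.403, 584 and 824 CPM in cortex and 0.741, 499 and 479 CPM in the tumours, so that 1 library of each group had almost none. Col2a1 stood at 14.1, 699 and 154 CPM in the tumours and H19 at 252, 4736 and 3169.5. Saa3, an acute phase protein, stood at 126, 11.6 and 3.67, and Tnn, tenascin N, at 53.9, 6.05 and 1.44, both highest in tumour 1. Cldn4, an epithelial claudin, stood at 1.48, 47.3 and 37.2 and was lowest in tumour 1. Cxcl9, a chemokine induced by interferon gamma, stood at 102, 179.97 and 5.27, and the guanylate-binding proteins Gbp2b and Gbp8 at 36.3, 62.7 and 2.39 and 40.2, 97.1 and 6.06, each lowest in tumour 3. No group of labels separates these tumours, and 3 libraries give no test of such differences. With limma-voom, Col2a1, Tnn, Cldn4, Cxcl9, Gbp2b and Gbp8 were not called against cortex.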

How the data were processed

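PolyA RNA was sequenced from bulk tissue (300 ng input, stranded mRNA libraries, paired-end), per the labels' protocols. Build mm10, STAR 2.5.0a and DESeq2 1.30.1, with FastQC 0.11.7 and MultiQC 1.6 for quality, are listed in the submitters' processing notes, and the counter's name is not stated. The deposited signal values are reads over a single scaling factor for each library: 100% of values came out as whole reads within 0.01. All 6 libraries come from 1 table, so their scaling was common.

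Levels are CPM computed from the recovered reads. The main test was limma 3.58.1 (R 4.3.3; trend, robust) on log2(deposited value + 1), so fold changes of low genes are understated. Genes needed, in 3 libraries, the CPM that equals 10 reads at the median depth, and 15 reads in all. The p-values were adjusted over all 14621 genes, and the script was tested on simulated data. In the simulation few genes changed, evenly in both directions and at a fixed dispersion. It therefore checks neither the scaling nor the error rate where most genes are called. Count tests on recovered reads (edgeR 4.0.16, DESeq2 1.42.0, limma-voom) were alternatives, beside other pseudocounts, filters and scaling. For a gene at 0 reads in a group, fold is a lower bound against a floor of 3 reads over the group, which covers counting error only. The members, gene lists, gene pairs and rules were chosen with earlier results of these data known. Named genes were the fusion partners, the 15 largest called rises and falls at a mean of 10 CPM without overlap (predicted symbols left out), the 15 largest gains and losses of CPM, members of the lists and pairs, and genes of runs, the Igf2 region and variable genes. Replicate numbers were not used to pair libraries in the main test. Gene positions and promoters are from RefSeq, GRCm38.p6. Of the symbols in the table, 27 had been turned into dates and were not named. Some genes that these rules select are not reported here.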

Additional observations from a re-analysis of the deposited data

How the results depend on the processing

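The count of 10521 called genes stayed within 1.5 times under each of 16 alternatives, as did the counts higher, lower and at least 2-fold changed. It was 10464 with edgeR on recovered reads, 10285 with DESeq2, 10449 with limma-voom, 10524 with TMM scaling, 11404 without a filter on low values and 9483 with the ETV5 tumours in the fit. Leaving out 1 library gave 9770 to 10894 calls, of which 4961 to 5431 were higher and 4809 to 5463 lower, and 7081 to 7497 genes at least 2-fold changed. No main call was called in the opposite direction under these alternatives. With the replicate number as a block, 10160 genes were called, 5055 higher and 5105 lower, 7128 of them at least 2-fold changed. Deviations of same-numbered libraries were nearly uncorrelated across genes (0.025, -0.024 and 0.0017). With 3 libraries in a group this cannot exclude a pairing. Xist was almost absent from library 1 of both groups (0.403 CPM in cortex and 0.741 CPM in tumours). The labels state no pairing. Of 363 named genes called, 348 were called in each alternative in which they were tested, and 0 were reversed. Of 2304 list counts compared, 62 moved by over 1.5 times, and 56 of these were counts of at most 3 genes. The other 6 were the forebrain patterning factors called higher (4, against 2 without cortex library 3 and 1 in the fit over 9 libraries) and, in that fit, the SOX and bHLH factors (7 higher and 5 lower), the homeostatic astrocyte genes (6 lower) and the mural genes (5 higher). Small counts that moved with 1 library left out include lymphocyte genes called higher, 5 to 7 in place of 2 without any 1 cortex library or tumour 3. Of 1152 list medians compared, 121 moved by more than the spread, and 3 of 72 lists had a median that changed sign. Depth left 14621 of 24421 genes with enough reads to be tested. Gene counts cannot separate the fusion from its partners, cell number from RNA per cell, or near-identical gene copies.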
